A study of Mus musculus with 8 samples.

Results

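The Bcl2 family decides whether the outer membrane of the mitochondrion is opened, the step that commits a cell to the mitochondrial route of apoptosis. Pro-survival members (here Mcl1, Bcl2, Bcl2l1, Bcl2a1b and Bcl2a1d) hold the effectors Bax and Bak1 in check, and BH3-only members (here Bcl2l11, which encodes Bim, and Pmaip1, which encodes Noxa) bind the pro-survival proteins and release the effectors. Mcl1 is known for an mRNA and a protein that are both short-lived, and T cells depend on it through development and activation. The 9 genes were picked by symbol, not by a measured value, out of 17578 gene identifiers in the library tables. Each of the 9 matched 1 identifier in those tables, and 7 of them (all but Bcl2a1d and Pmaip1) also have a row in the deposited table of normalised expression.

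The values come from single-cell RNA-seq of 4T1 mammary tumours, grown for 10 days from a mouse carcinoma cell line in Balb/c mice and digested for 1 h with a bacterial protease. There were 4 conditions, each with 2 libraries called aliquots A and B: 37C with inhibitor, 37C without inhibitor, 4C with inhibitor and 4C without inhibitor. The inhibitor was actinomycin D, a transcription inhibitor, at 2 nM, and it was present during digestion. How far transcription was blocked at this dose was not measured. Every condition used a pool of 6 tumour pieces from different mice, and all went through removal of erythrocytes, debris and dead cells. The 37C tubes were run on a heated instrument of another model than the 4C tubes, so temperature and instrument cannot be told apart. Nothing in the labels gives A and B separate pools, so every p-value below measures the spread between these libraries, which may be technical. The comparisons ask how warmth during dissociation, and this inhibitor, alter the transcripts that are read out.

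The submitters named 654 cells: 154 T cells, 66 NK cells, 109 macrophages and 325 tumour cells. Libraries at 37C held 99 to 115 named cells and 158314 to 199929 unique molecular identifiers (UMIs, each standing for 1 captured RNA molecule); those at 4C held 34 to 74 cells and 23212 to 65149 UMIs. Summed T-cell markers reached 8762 UMIs per 1000000 UMIs of the class (CPM) in the T cells, against 3786 CPM in NK cells, 80.8 CPM in macrophages and 27.5 CPM in tumour cells. All 9 T-cell markers were seen in the NK cells too, at up to 6977 CPM in a library, and NK-cell markers reached 11705 CPM in the NK cells. Macrophage markers summed to 23462 CPM in the macrophages, but at 4C this class held only 1 to 8 cells per library. In one 4C library its mast cell or basophil markers reached 25742 CPM, and in one 4C library its neutrophil markers reached 43510 CPM. Of the 7 markers fixed for 4T1 cells, Epcam and Cldn7 had 0 UMIs in the tumour cells, and the other 5 were present. The share of T cells was 8.93% to 28.3% of named cells at 37C and 30.5% to 47.1% at 4C, and that of macrophages was 14.8% to 30.8% at 37C and 2.94% to 13.6% at 4C. In sums over all named cells, fewer cells of a type and less RNA per cell cannot be told apart.

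The sequences shown are those that bear on how the counts can be read: AU-rich sites of the Mcl1 mRNA, its promoter, and the promoters of the Bcl2a1 copies. Mcl1 (ENSMUSG00000038612.16) lies at chr3:95658788-95663176 on the plus strand of GRCm38. Its 3′ untranslated region (UTR) has 2353 bases in GENCODE vM21 and holds 8 copies of ATTTA, or 3.40 per 1000 bases, against a median of 1.20 over 20903 coding genes. The longer form TATTTAT, a core of the AU-rich elements found in many short-lived mRNAs, occurs 3 times in it, and 26.3% of those genes have at least 1. The 3 sites follow on the plus strand, with TATTTAT in capitals, at chr3:95660882-95660911, chr3:95662578-95662607 and chr3:95662603-95662632.
Mcl1 site 1: gaaaacatgtgTATTTATgaaggtggactt
Mcl1 site 2: ttgtacctgtgTATTTATccttgatcatag
Mcl1 site 3: catagtttgctTATTTATgtttaactcttc
Among the other members, the 3′ UTR of Pmaip1 holds 4 copies of TATTTAT, those of Bcl2 and Bcl2l11 hold 2 each, that of Bcl2l1 holds 1, and those of Bax, Bak1, Bcl2a1b and Bcl2a1d hold 0. These are matches of letters, not measured sites.

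The promoter windows run from 250 bases before to 50 after the annotated start, from RefSeq on GRCm38.p6, each 5′ to 3′ on its gene's strand. In that of Mcl1, at chr3:95658471-95658770 on the plus strand, capitals mark letters that match any of 5 motifs on either strand. The motifs were TGANTCA (AP-1), TGACGTCA (CREB), GGAAGT (ETS), GGGCGG (GC box) and the NF-kB motif.
Mcl1 promoter: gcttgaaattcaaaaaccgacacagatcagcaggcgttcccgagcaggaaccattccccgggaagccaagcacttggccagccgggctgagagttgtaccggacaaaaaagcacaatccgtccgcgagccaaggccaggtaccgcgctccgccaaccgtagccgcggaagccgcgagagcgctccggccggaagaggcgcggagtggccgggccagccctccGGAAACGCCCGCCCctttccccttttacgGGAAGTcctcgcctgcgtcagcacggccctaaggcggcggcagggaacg
The ETS motif, the GC box and the NF-kB motif matched 1 time each, and the GC box overlaps the NF-kB match. Over 32851 promoter windows, 23.8% held GGAAGT, 35.7% GGGCGG, 1.63% the NF-kB motif, 7.81% TGANTCA and 1.79% TGACGTCA. A match is a description and says nothing of binding here.

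Bcl2a1b (ENSMUSG00000089929.1, chr9:89199209-89207827, plus strand) and Bcl2a1d (ENSMUSG00000099974.1, chr9:88723285-88731914, minus strand) are copies of one gene, called A1. Their promoter windows lie at chr9:89199023-89199322 on the plus strand and chr9:88731801-88732100 on the minus strand. In the stretch they share, 247 of 250 aligned bases were identical, and capitals mark bases of each copy with no identical partner in the other.
Bcl2a1b promoter: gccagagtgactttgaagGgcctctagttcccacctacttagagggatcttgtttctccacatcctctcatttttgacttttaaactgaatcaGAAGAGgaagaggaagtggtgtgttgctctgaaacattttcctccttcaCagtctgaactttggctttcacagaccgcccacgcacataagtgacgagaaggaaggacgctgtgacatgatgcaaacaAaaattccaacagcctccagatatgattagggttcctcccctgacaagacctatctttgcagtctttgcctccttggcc
Bcl2a1d promoter: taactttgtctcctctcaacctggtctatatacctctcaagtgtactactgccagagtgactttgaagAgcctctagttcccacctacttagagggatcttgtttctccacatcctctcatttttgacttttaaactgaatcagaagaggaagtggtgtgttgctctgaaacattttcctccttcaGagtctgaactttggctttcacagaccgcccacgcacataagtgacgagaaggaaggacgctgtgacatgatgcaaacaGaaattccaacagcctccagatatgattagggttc
Each of these windows held 1 TGANTCA, 1 GGAAGT and 1 GGGCGG. The last 300 bases of their transcripts, which a 3′ library reads, were 99.3% identical, so the split of reads between Bcl2a1b and Bcl2a1d is uncertain.

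In T cells, Mcl1 was lower after 37C dissociation than after 4C dissociation, and lowest with inhibitor at 37C. Mcl1 had 61.4 and 105 CPM in T cells of the 37C inhibitor aliquots and 222 and 660 CPM in those at 37C without inhibitor, against 884 and 1552 CPM at 4C with inhibitor and 691 and 1087 CPM at 4C without it. All 4 libraries at 37C lay below all 4 at 4C, the nearest being 660 and 691 CPM. The share of all genes that separate in this way is not given here. The counts behind these levels were small, with 1, 1, 7 and 16 Mcl1 UMIs in the 37C libraries and 5, 15, 8 and 14 UMIs in the 4C libraries, in the same order. They came from 1 of 11, 1 of 10, 5 of 28 and 12 of 23 T cells at 37C, and from 5 of 16, 11 of 20, 7 of 18 and 8 of 28 T cells at 4C.

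In a model over the 230 genes with enough counts in T cells, edgeR's quasi-likelihood test gave Mcl1 a log2 fold change of -2.48 ± 0.57 (SE) for 37C against 4C, with an adjusted p of 0.0169. That value is the mean of the changes with and without inhibitor, which are given below. Mcl1 was the only member of the 9 that entered this test, and it fell. The same test called 22 of the 230 genes, or 9.57%, of which 16 were higher and 6 lower at 37C. Of those 6 genes that fell, Ly6c2 had the fold change farthest from 0 (-2.73 ± 0.78, adjusted p = 0.0439), followed by Mcl1. Selplg (-1.26) and Ms4a4b (-1.14) also fell, and among the genes that rose were Ctla4 (4.19) and Il2ra (2.47), known from regulatory and activated T cells, and Tnfrsf9 (1.63), an activation-induced receptor. The part of T-cell state or subset in the Mcl1 value was not tested. The adjusted p of Mcl1 was 0.0543 with DESeq2's Wald test, 0.130 with no filter on low counts, 0.0781 without 37C inhibitor aliquot A and 0.0645 without 4C inhibitor aliquot B. With the CPM of each library as the only value, an exact two-sided permutation test over 70 arrangements gave p = 0.0286, the smallest it allows. Adjusted over the 4 cell types, that value was 0.114. The test shuffled the 8 libraries freely, as if the 2 aliquots of a condition were separate samples. A single class at the smallest p could not pass the threshold after adjustment.

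**Figure D1:**
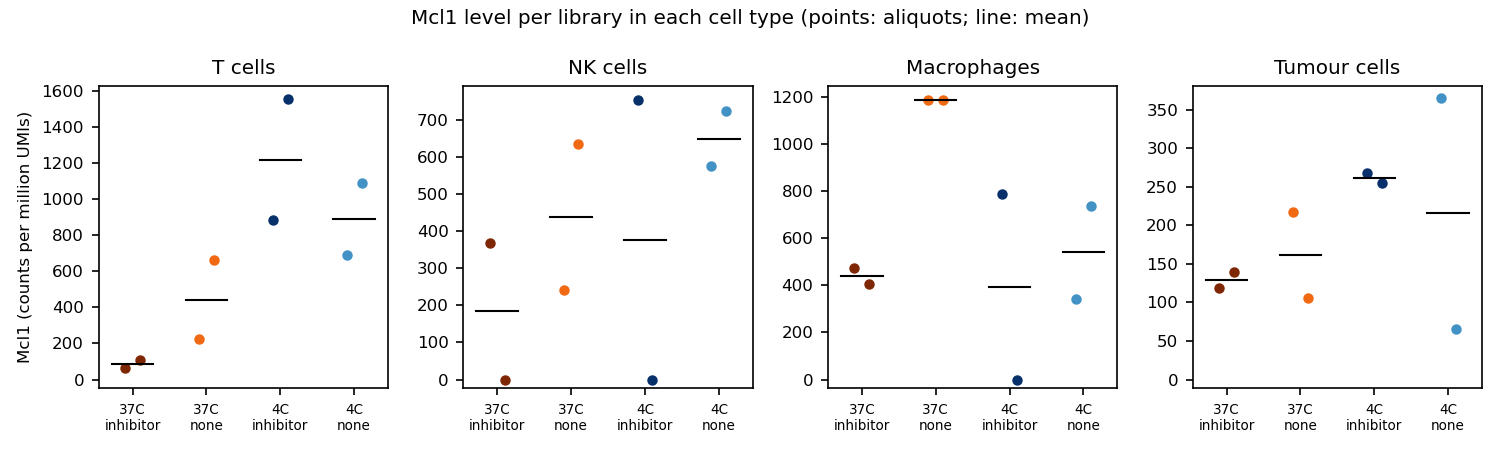
Mcl1 level in CPM (vertical axis, a separate scale per panel) in T cells, NK cells, macrophages and tumour cells. Points are the 2 aliquots of each condition and the line is their mean; in T cells the 37C libraries run from 61.4 to 660 CPM and the 4C libraries from 691 to 1552 CPM.

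The T-cell difference was split by inhibitor. With inhibitor in both tubes, Mcl1 changed by -3.87 ± 0.94 on the log2 scale at 37C against 4C (edgeR's adjusted p = 0.0516), in a comparison that called 0.435% of genes. Without inhibitor the value was -1.10 ± 0.61 (adjusted p = 0.454), again with 0.435% of genes called. Inhibitor against none at 37C gave -2.38 ± 0.99 (adjusted p = 0.535), beside 0.87% of genes called, and inhibitor against none at 4C gave 0.40 ± 0.63 (adjusted p = 0.894), beside 0.0% called. The interaction, the inhibitor's effect at 37C minus that at 4C, was -2.77 ± 1.18 (adjusted p = 0.826), and this test too called 0.0% of genes. None of these 5 values passed the test in T cells. With inhibitor in both tubes, whether Mcl1 was called depended on which library was left out, as described with the alternatives. Counts over all 230 genes were 0 for the last 2 of these 5 values with DESeq2 as well, while edgeR gave 14 and 12 genes an unadjusted p under 0.05.

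Depth moved with temperature in the T-cell class. The median T cell held 743 to 1027 UMIs in the 37C libraries and 309 to 400.5 UMIs in the 4C libraries. Barcodes with under 50 UMIs that were named as no cell, taken here as a reading of free RNA, held Mcl1 at 627 to 770 CPM at 37C and 458 to 824 CPM at 4C. Mcl1 in T cells lay under that level of its own library in all 4 libraries at 37C, and above it in 3 of the 4 at 4C, the exception being 4C no inhibitor aliquot A. Markers of neutrophils, B cells and dendritic cells summed to 4, 3, 53 and 70 UMIs in the T cells at 37C and to 0, 2, 0 and 33 UMIs at 4C, in the same library order. The temperatures overlap, and the 3 highest sums were in libraries without inhibitor. The 33 included 29 UMIs of neutrophil markers. Without the 9 T cells that held 5 or more such UMIs, Mcl1 changed by -2.55 ± 0.57 (edgeR's adjusted p = 0.0115), beside 8 Mcl1 UMIs left out. Of these, 1 and 6 were in 37C no inhibitor aliquots A and B and 1 in 4C no inhibitor aliquot B, so the removal itself lowered the 37C counts more. The part of cell depth and free RNA in the T-cell result was not tested.

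Tumour cells showed no called change of Mcl1. It had 119 and 140 CPM at 37C with inhibitor and 217 and 106 CPM at 37C without it, against 267 and 255 CPM at 4C with inhibitor and 366 and 66.1 CPM at 4C without it. The groups overlap, and the 4C no inhibitor aliquots span the whole range. The log2 fold change for 37C against 4C was -0.62 ± 0.44 (edgeR's adjusted p = 0.571), beside 1.42% of 1756 genes called, and it was 0.32 without 4C no inhibitor aliquot A. The other 5 comparisons gave Mcl1 adjusted p-values of 0.729 to 0.998 with edgeR, with 2.11% of genes called for temperature without inhibitor, 0.0569% for temperature with inhibitor, 0.911% for inhibitor at 37C, and 0.0% both for inhibitor at 4C and for the interaction. Bax, the only other member tested in tumour cells, had a fold change of -0.32 ± 0.57 for 37C against 4C (edgeR's adjusted p = 0.844).

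The difference between the cell types was fitted in its own model, with each library as a block. The change of Mcl1 at 37C against 4C in T cells minus that in tumour cells was -1.93 ± 0.82 on the log2 scale, with an unadjusted p of 0.0186 and an adjusted p of 0.827 from edgeR over 802 genes, of which 0.125% were called. For inhibitor against none at 37C the same difference was -2.11 ± 1.27 (edgeR's adjusted p = 1), with 0.0% called. A larger change in T cells than in tumour cells therefore did not pass the test.

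Macrophages at 4C, and NK cells at both temperatures, had too few cells in at least 1 library for a fit. Macrophages had 475 and 404 Mcl1 CPM at 37C with inhibitor and 1187 and 1186 CPM at 37C without it, from 26, 14, 32 and 25 UMIs. The 2 inhibitor aliquots lay below both others, and the pooled ratio was 0.378 with a 95% counting interval of 0.246 to 0.576, which covers counting error only and no spread between tubes. In these 37C macrophages, mast cell or basophil markers ran from 28.9 to 5674 CPM and neutrophil markers from 111 to 1298 CPM over the 4 libraries, and their part in the ratio was not tested. At 4C macrophages had 1, 0, 2 and 1 UMIs. NK cells had 367 and 0 CPM at 37C with inhibitor and 241 and 635 CPM at 37C without it, against 753 and 0 CPM at 4C with inhibitor and 576 and 723 CPM at 4C without it. The 0 values were 0 of 1531 UMIs, from 2 cells, and 0 of 8487 UMIs, which allow up to 1959.5 and 353 CPM. The exact permutation test of 37C against 4C over the 8 libraries gave p = 0.229 in macrophages, 0.400 in NK cells and 0.286 in tumour cells, and the adjusted values were 0.381, 0.400 and 0.381.

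Summed over all named cells, none of the 9 members was called in any of the 6 comparisons. The filter on low counts passed 6 of them (Mcl1, Bcl2, Bcl2l1, Bax, Bak1 and Bcl2l11), and Bcl2a1b, Bcl2a1d and Pmaip1 did not pass. Of the 3391 genes tested, 3.98% were called for 37C against 4C, 1.06% for that without inhibitor, 1.8% for that with inhibitor, 1.21% for inhibitor at 37C, and 0.0% both for inhibitor at 4C and for the interaction. DESeq2 also called 0 of the 6 members in every comparison. At an unadjusted p under 0.05, edgeR marked Mcl1 (0.0244) and Bcl2 (0.00491) for temperature, the same 2 for temperature with inhibitor (0.0066 and 0.0105), Mcl1 (0.0159) and Bcl2l11 (0.00148) for inhibitor at 37C, and 0 members in the other 3 comparisons.

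**Figure D2:**
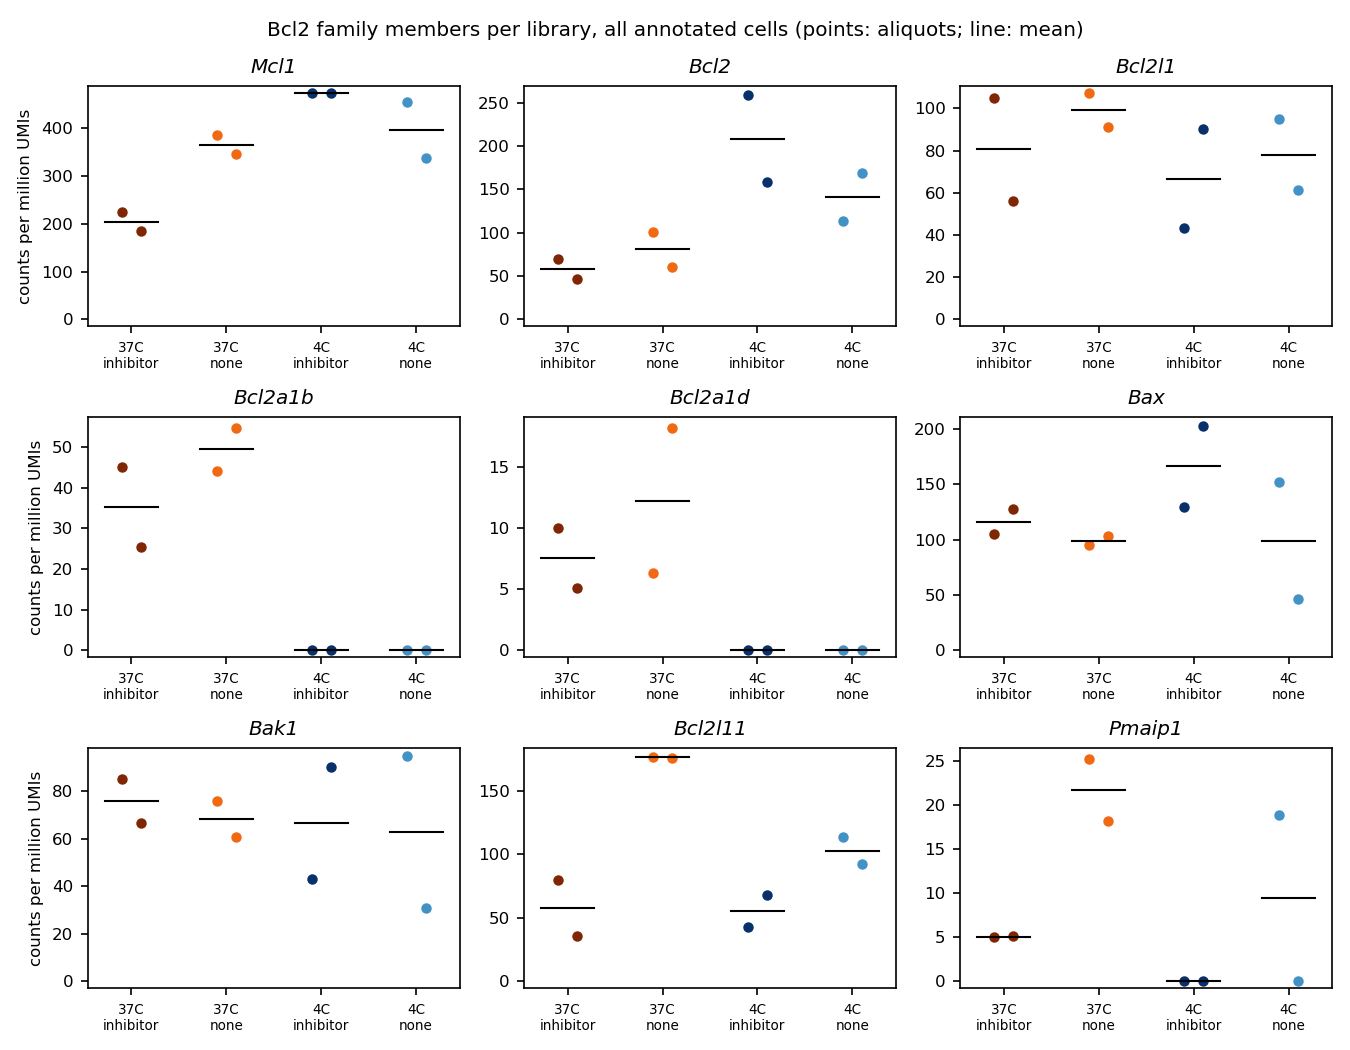
Level of each member in CPM over all named cells (vertical axis, a separate scale per panel) in the 4 conditions. Points are the 2 aliquots and the line is their mean; Bcl2 lies between 46.0 and 101 CPM at 37C and between 114 and 258 CPM at 4C, and both Bcl2a1 copies are at 0 at 4C.

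Among the pro-survival members, Mcl1 over all named cells had 225 and 184 CPM at 37C with inhibitor and 385 and 346 CPM at 37C without it, against 474 and 474 CPM at 4C with inhibitor and 455 and 338 CPM at 4C without it. The 37C inhibitor aliquots were the lowest of the 8, and the 37C no inhibitor aliquots overlap those at 4C. The fold change for temperature was -0.60 ± 0.25 (edgeR's adjusted p = 0.212) and for inhibitor at 37C -0.81 ± 0.31 (adjusted p = 0.342). The interaction was -1.01 ± 0.49 on the log2 scale (adjusted p = 0.676).

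Bcl2 (ENSMUSG00000057329.7, chr1:106538178-106714274, minus strand), the founding pro-survival gene, had 70.02 and 46.0 CPM at 37C with inhibitor and 101 and 60.8 CPM at 37C without it, against 258 and 158 CPM at 4C with inhibitor and 114 and 169 CPM at 4C without it. Every 37C library lay below every 4C library, and the share of all genes that separate in this way is not given here. The fold change was -1.22 ± 0.39 on the log2 scale, with an adjusted p of 0.0845 from edgeR. When all listed barcodes were summed, named or not, Bcl2 had 59.6 to 90.0 CPM at 37C against 161 to 359 CPM at 4C, from 167 and 91 UMIs. In that fit it fell by 1.44 ± 0.22 on the log2 scale (edgeR's adjusted p = 1.6e-05), beside 17.2% of 7515 genes called. With inhibitor in both tubes it fell by 1.90 ± 0.33 there (adjusted p = 0.000116), beside 10.6% called. Without inhibitor Bcl2 was not called in that fit, beside 4.64% of genes called. The groups differ in the shares of T and NK cells, which hold most of the Bcl2 per UMI, and the part of cell composition in this difference was not tested. Unnamed barcodes under 50 UMIs also held a larger share of all UMIs in each 4C library than in any 37C library. That share was largest in 4C inhibitor aliquot A, with 22841 of 55698 UMIs. It was smallest in 37C inhibitor aliquot A, with 34574 of 801508 UMIs. The part of these barcodes in the fit over all listed barcodes was not tested.

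Bcl2l1, which encodes Bcl-xL (ENSMUSG00000007659.18, chr2:152780668-152831728, minus strand), had 105 and 56.2 CPM at 37C with inhibitor and 107 and 91.1 CPM at 37C without it, against 43.1 and 90.2 CPM at 4C with inhibitor and 94.8 and 61.4 CPM at 4C without it. The groups overlap, and the temperature value was 0.31 ± 0.47 (edgeR's adjusted p = 0.813). In T cells alone its UMIs were 2, 0, 8 and 6 in the 37C libraries, while the 4C libraries held 0 of 39783 UMIs, which allows a level of up to 75.4 CPM. The pooled T-cell level at 37C was 2.60-fold that floor of 3 counts over the 4 libraries, a value that leaves out the counting error at 37C. Of these 16 UMIs, 14 were in the tubes without inhibitor. The gene did not pass the filter in T cells, and with no filter edgeR gave it an adjusted p of 0.882.

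Bcl2a1b and Bcl2a1d, the A1 copies, were read only at 37C among named cells. Bcl2a1b had 9, 5, 7 and 9 UMIs at 37C and Bcl2a1d had 2, 1, 1 and 3, against 0 of 185425 UMIs at 4C for each, a limit of 16.2 CPM. Of the 30 UMIs of Bcl2a1b, 23 were in macrophages, with 128 and 144 CPM at 37C with inhibitor and 185 and 285 CPM at 37C without it. Macrophages at 4C held 11137 UMIs in all, so that 0 counts there allow up to 269 CPM, and a difference within this class was not detectable at this depth. Over all named cells the 37C level of Bcl2a1b was 2.58-fold the 3-count limit at 4C, a value that leaves out the counting error at 37C. With no filter on low counts edgeR called it higher (adjusted p = 0.0211), beside 2.02% of 14516 genes called. The share of macrophages among named cells was higher in every 37C library than in every 4C library, as given above, and its part in this difference was not tested. Over all listed barcodes, 2 UMIs of Bcl2a1b and 1 of Bcl2a1d were at 4C. Bcl2a1a, a further copy outside the 9, had 16 UMIs at 37C and 0 at 4C among named cells.

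The effectors stayed within the spread of the libraries. Bax (ENSMUSG00000003873.10, chr7:45461697-45466898, minus strand) had 94.7 to 128 CPM at 37C against 46.0 to 203 CPM at 4C, a fold change of -0.20 ± 0.39 (edgeR's adjusted p = 0.862). Bak1 (ENSMUSG00000057789.13, chr17:27019810-27029009, minus strand) had 60.8 to 85.0 CPM at 37C against 30.7 to 94.8 CPM at 4C, a fold change of 0.17 ± 0.52 (adjusted p = 0.917). For inhibitor at 37C they were at 0.25 ± 0.42 and 0.18 ± 0.53, and neither passed. The 4C libraries were the widest for both genes, with 1 to 9 UMIs each.

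Of the BH3-only members, Bcl2l11 (ENSMUSG00000027381.16, chr2:128126038-128162547, plus strand) had lower levels in both inhibitor tubes than in the tubes without it at either temperature among named cells. It had 80.0 and 35.8 CPM at 37C with inhibitor and 177 and 176 CPM at 37C without it, against 43.1 and 67.7 CPM at 4C with inhibitor and 114 and 92.1 CPM at 4C without it. Inhibitor against none at 37C gave -1.56 ± 0.43 on the log2 scale (edgeR's adjusted p = 0.0897). Without one or the other of the 4C no inhibitor aliquots, which are not part of that contrast but share in the spread estimate, the adjusted p was 0.0368 and 0.0394. Over all listed barcodes the levels were 63.6 and 43.5 CPM at 37C with inhibitor, against 138 and 130 CPM at 37C without it. There Bcl2l11 fell by 1.25 ± 0.26 with inhibitor (edgeR's adjusted p = 0.0017), beside 3.41% of genes called. At 4C the order of the levels turned round over all listed barcodes, with 144 and 129 CPM with inhibitor against 77.2 and 102 CPM without it. The temperature value was 0.44 ± 0.46 among named cells and -0.27 ± 0.25 over all barcodes, and neither passed. The T-cell class held 3, 0, 5 and 14 Bcl2l11 UMIs at 37C and 0, 1, 0 and 3 at 4C.

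Pmaip1 (ENSMUSG00000024521.7, chr18:66458533-66465565, plus strand) had 10 UMIs among named cells, 1, 1, 4 and 3 at 37C and 0, 0, 1 and 0 at 4C. Of the 10, 9 were in macrophages and 1 in T cells. The pooled ratio of 37C to 4C was 2.32 with a 95% counting interval of 0.322 to 102, so no difference was detectable at this depth.

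**Figure D3:**
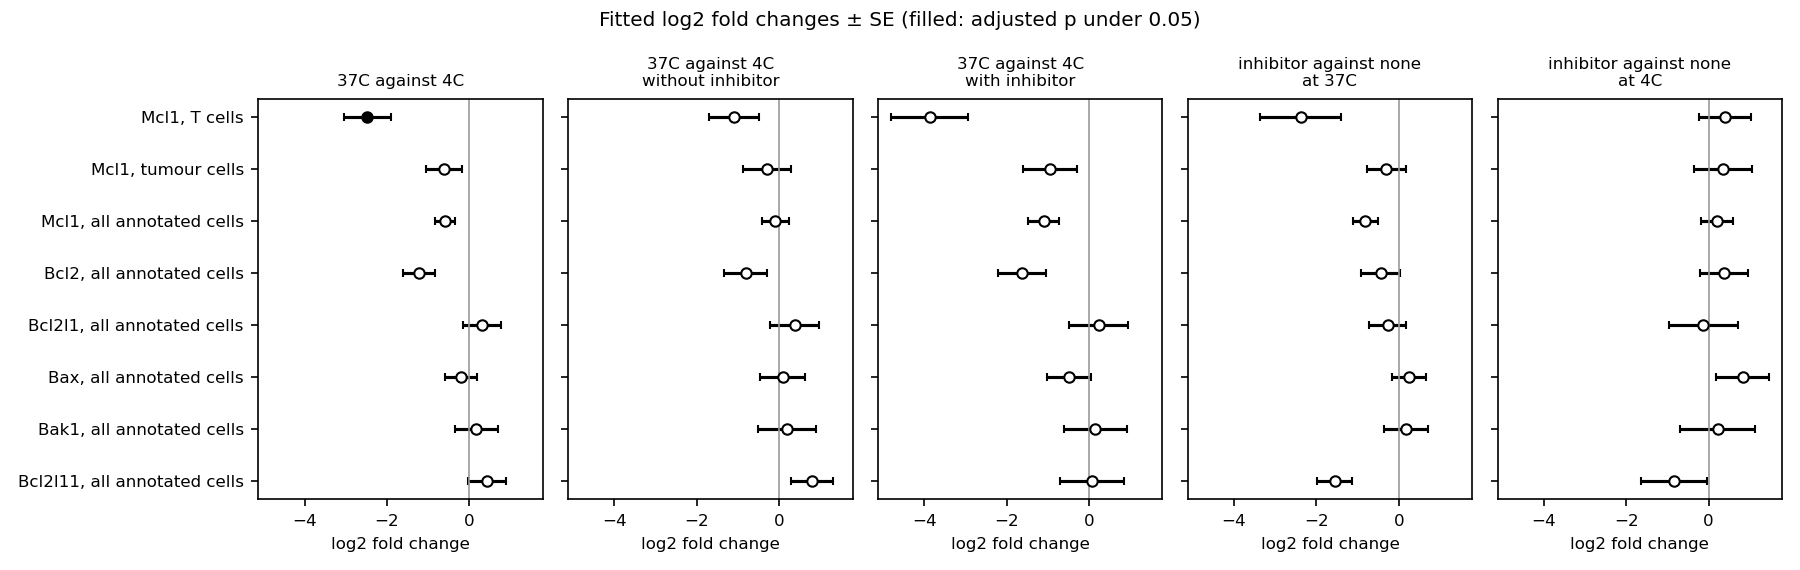
Fitted log2 fold changes (horizontal axis) with their SE from edgeR's quasi-likelihood test for the 6 members tested over all named cells and for Mcl1 in T cells and tumour cells, in 5 comparisons. Filled points have an adjusted p under 0.05; the only filled point is Mcl1 in T cells for 37C against 4C, at -2.48.

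Pooled levels of the members differed between the named cell classes. The classes were named by the submitters from these same cells, so these levels are a description, without a test, and they pool all 8 libraries with 95% Poisson intervals for counting error only. Mcl1 was at 680 CPM (554 to 826) in macrophages, 552 (428 to 701) in T cells, 367 (221 to 573) in NK cells and 155 (124 to 190) in tumour cells. Neighbouring intervals overlap down to NK cells, and tumour cells lie below the other 3 in this pool. The order was not the same in every condition. In both 37C inhibitor aliquots T cells (61.4 and 105 CPM) lay below tumour cells (119 and 140 CPM), and pooled over the 4C libraries T cells were at 1056 CPM (761 to 1427) and macrophages at 359 CPM (97.9 to 920), the last from 4 UMIs. Libraries spread widely within each class, from 66.1 to 366 CPM in tumour cells and from 0 to 1187 CPM in macrophages.

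Bcl2 was at 502 CPM (328 to 736) in NK cells, 132 (75.4 to 214) in T cells, 53.2 (36.2 to 75.6) in tumour cells and 40.4 (14.8 to 87.9) in macrophages. NK cells stand above the rest, and tumour cells and macrophages overlap. Those NK cells held 26 of the 79 Bcl2 UMIs, or 32.9%, with 5.73% of all UMIs of named cells. Bcl2l11 ran in a like order at its top, with 406 CPM (251 to 620) in NK cells, 214 (140 to 314) in T cells, 141 (87.5 to 216) in macrophages and 48.1 (31.9 to 69.5) in tumour cells. Here tumour cells lie below the other 3, whose neighbouring intervals overlap.

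Bcl2l1 and Bax did not separate the classes by their intervals. Bcl2l1 ran from 132 CPM (75.4 to 214) in T cells to 74.1 (37.0 to 133) in macrophages, and Bax from 168 CPM (109 to 249) in macrophages to 98.9 (51.1 to 173) in T cells. Bak1 was at 141 CPM (87.5 to 216) in macrophages and 54.9 (37.6 to 77.6) in tumour cells, with T and NK cells overlapping both. Bcl2a1b was at 155 CPM (98.2 to 232) in macrophages, 41.2 (13.4 to 96.2) in T cells and 1.72 (0.0435 to 9.57) in tumour cells. Pmaip1 was at 60.6 CPM (27.7 to 115) in macrophages and at 0 of 582387 UMIs in tumour cells, which allows up to 5.15 CPM.

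The barcodes under 50 UMIs, pooled in the same way, held Mcl1 at 670 CPM (594 to 752), Bcl2 at 159 CPM (123 to 202), Bcl2l11 at 180 CPM (142 to 226) and Bcl2a1b at 26.1 CPM (13.0 to 46.7). For these 4 genes, the class intervals that lie above this reading of free RNA are those of NK cells for Bcl2 and Bcl2l11 and of macrophages for Bcl2a1b. Mcl1 in macrophages and T cells, Bcl2l11 in T cells and macrophages, and Bcl2 in T cells overlap it. Mcl1 in NK cells and tumour cells lay below it, as did Bcl2 in tumour cells and macrophages, and Bcl2l11 and Bcl2a1b in tumour cells. These levels are shares of UMIs, and a share like that of free RNA does not show where a cell's counts came from. The median T cell held 309 to 1027 UMIs over the libraries, against under 50 in each of these barcodes. How many counts of the named cells came from free RNA was not tested.

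**Figure D4:**
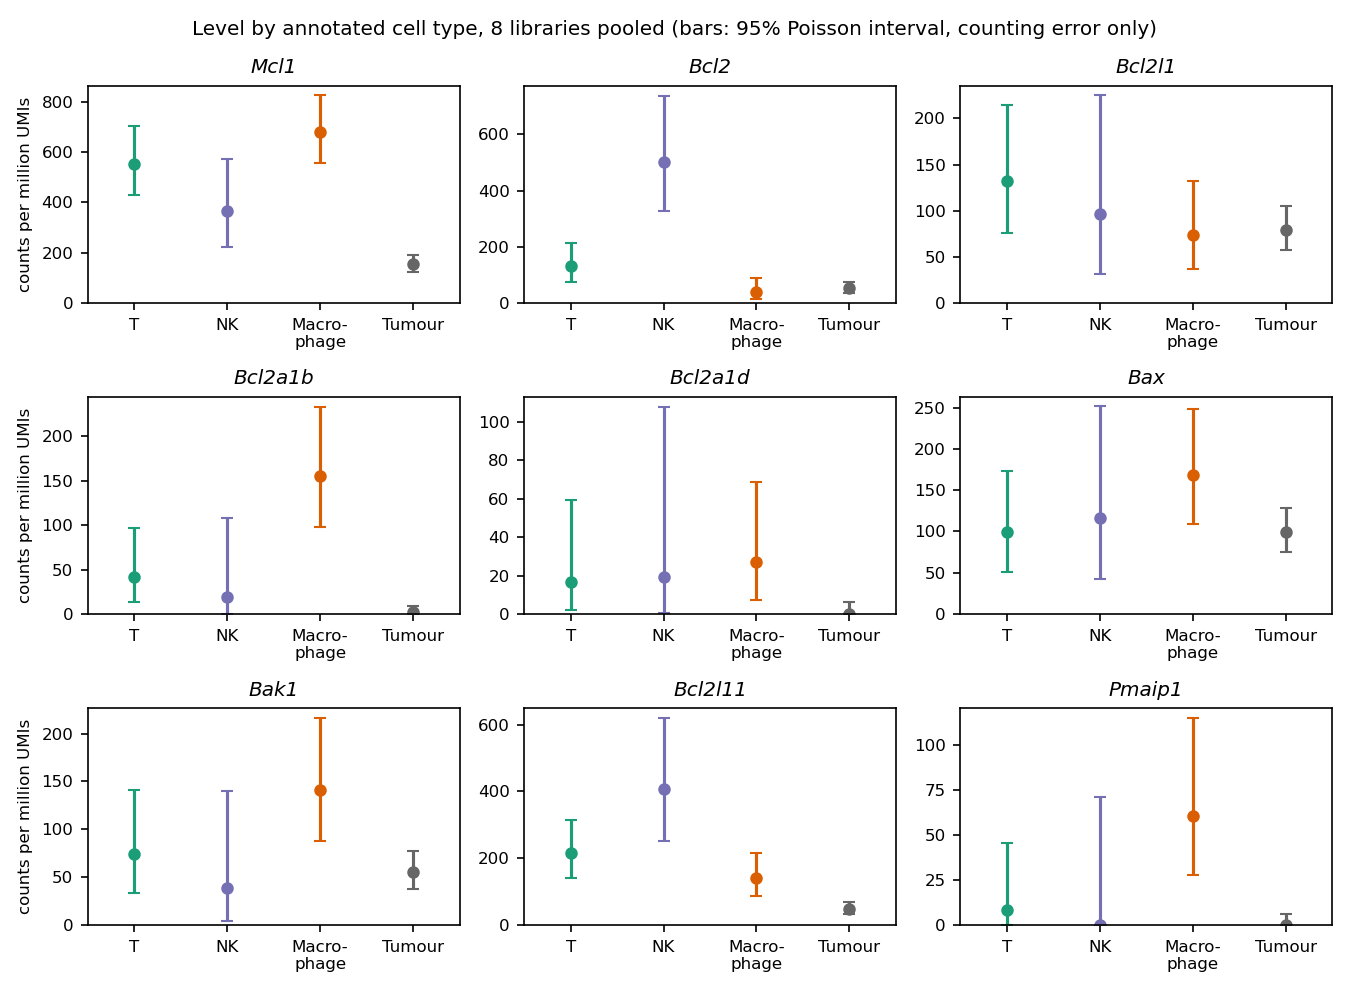
Level of each member in CPM (vertical axis, a separate scale per panel) in the 4 named cell classes, with the 8 libraries pooled. Bars are 95% Poisson intervals for counting error only; in this pool Mcl1 is lowest in tumour cells at 155 CPM, an order that turns against T cells at 37C with inhibitor, Bcl2 highest in NK cells at 502 CPM and Bcl2a1b highest in macrophages at 155 CPM.

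The genes around the family gave few counts. For 37C against 4C over all named cells, the rest of the pro-survival relatives had 2 of 7 genes tested, with 0 higher and 0 lower. They were Tpt1, a translation-controlled protein reported to stabilise Mcl1 (0.67 ± 0.25, edgeR's adjusted p = 0.147), and Bag1, a co-chaperone that binds Bcl2 (-0.05 ± 0.32, adjusted p = 0.965). The remaining effectors and BH3-only relatives had 3 of 13 tested and 0 called, among them Bnip3, a mitophagy receptor, at -0.08 ± 0.29. The apoptosome and caspases had 2 of 14 tested and 0 called, with Parp1, a caspase substrate, at 0.19 ± 0.44. Death receptors and their adaptors had 2 of 13 tested and 0 called, with the TNF receptor gene Tnfrsf1b at 0.32 ± 0.40. The median over all tested genes was 0.04 on the same scale.

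The inhibitors of apoptosis had 3 of 5 tested and 0 called, with Birc5, which encodes survivin, at 1.20 ± 0.50 (edgeR's adjusted p = 0.220). The ligases, deubiquitinases and partners that set Mcl1 protein turnover had 4 of 9 tested and 0 called, with Ier3, an early response gene, at 0.55 ± 0.38 and the ligase gene Huwe1 at -0.20 ± 0.51. Mitochondrial channel and carrier genes had 7 of 8 tested and 0 called, with the ADP/ATP carrier genes of the inner membrane, Slc25a4 at 0.39 ± 0.26 and Slc25a5 at 0.13 ± 0.27. For inhibitor at 37C these 7 lists again had 0 genes called in either direction. None of them had a gene called in T cells, where Tpt1 was the only gene tested.

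Other transcripts listed as short-lived had a median above 0 for temperature, where Mcl1 had a value below 0. Their median was below 0 for inhibitor at 37C, as was the value of Mcl1. These genes were listed with earlier results of these data known, and no half-life was measured here. Of 33 such genes, among them the members Bcl2l11 and Pmaip1, 29 were tested over all named cells, and 7 were higher and 0 lower at 37C than at 4C, beside 3.98% of all genes called, with a median of 0.96 on the log2 scale against 0.04 for all genes. Fos was higher by 5.43 ± 0.66 (edgeR's adjusted p = 3.3e-05) and Fosb by 4.22 ± 0.62 (0.000229); both are AP-1 subunits. Jun, their partner, was higher by 2.63 ± 0.40 (0.000373), and Nfkbia, the NF-kB inhibitor, by 1.39 ± 0.28 (0.00549). For inhibitor at 37C, 10 of the 29 were lower and 0 higher, beside 1.21% of all genes called, with a median of -1.35. Of these, Tnfaip3, an NF-kB brake, was at -2.91 ± 0.43 and Ier5, an early response gene, at -2.27 ± 0.35, with adjusted p-values of 0.0013 and 0.00139, and Nfkbia and Fosb followed with 0.00265 and 0.00278.

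In T cells 4 of the 33 were tested for 37C against 4C, and 1 was higher, Nfkbia, by 2.10 ± 0.53 (edgeR's adjusted p = 0.0211). Nfkbia was also the 1 of these 4 that fell with inhibitor at 37C, by 3.11 ± 0.52 (adjusted p = 0.00454). Junb was at 1.08 ± 0.63, Tnfaip3 at 1.00 ± 0.63 and Btg2, an antiproliferative gene, at -0.82 ± 0.49 for 37C against 4C, and none of them passed. Of 16 long-lived transcripts, 12 were tested in T cells, with 2 higher and 0 lower, beside 9.57% of all T-cell genes called. These were Actb (0.57 ± 0.16) and B2m (0.49 ± 0.14), with edgeR's adjusted p of 0.0439 and 0.045. The median of those 12 was 0.24, beside 0.04 for all 230 genes. Over all named cells 14 of the 16 were tested, with 0 higher and 1 lower, Tmsb4x, at -0.61 (adjusted p = 0.0281).

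The genes whose levels followed Mcl1 most closely over the 8 libraries are given as a description, with Pearson's r of log2(CPM + 1). Over all named cells they were Dock10 (0.992), Pdcd4 (0.972), Dgka (0.962), Lck (0.953) and Sla2 (0.952), out of 3391 genes. Lck encodes the kinase of the T-cell receptor and Dgka a diacylglycerol kinase of T cells, and the share of T cells differed between the libraries in the same direction. Dock10 had 20.01 and 10.2 CPM at 37C with inhibitor and 50.5 and 48.6 CPM at 37C without it, against 86.2, 90.2, 94.8 and 46.0 CPM at 4C. The named cells of a library held 23212 to 199929 UMIs, so levels this low rest on few counts. Within T cells the closest were Rps14 (0.845), Ms4a4b (0.828), Rpl37 (0.815), Rps19 (0.815) and Rpl28 (0.792), out of 230 genes. All points share their library and its depth.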

How the data were processed

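Single-cell 3′ RNA-seq libraries were made with the SureCell WTA kit for the ddSEQ system, per the labels' protocols. The genome build GRCm38 and the tools Seurat, STAR 2.7.1a, UMI-tools, featureCounts 1.6.0 and SAMtools are listed in the submitters' processing notes, without their settings. The authors deposited UMI counts per gene and barcode for each library (2990 to 3000 barcodes listed), a natural log table of 1 plus counts per 10000 for 654 cells, and a text table of cell classes. For the members, all 555 values above 0 of the natural log table were proportional to the deposited counts within a tolerance of 0.001. Symbols were matched from GENCODE vM21 for 17520 of 17578 identifiers, and 13 UMIs in rows with no gene identifier were left out. Just 1 annotated barcode was shared by 2 libraries.

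The labels say nothing of doublets, and no doublet caller was run. Counts were summed per library and class. Genes were kept by filterByExpr, scaled by TMM and tested with edgeR 4.0.16 (glmQLFit and glmQLFTest, 4 groups, two-sided) under R 4.3.3, with Benjamini-Hochberg adjustment over all genes tested and a threshold of 0.05. SE is the size of the fold change divided by the square root of F. Levels in CPM are counts per 1000000 UMIs of that class in that library, without TMM. DESeq2 1.42.0 was an alternative. Limits for 0 counts use 3 counts, and intervals cover counting error only at 95%. The test was tried on simulated data: in T cells at 37C against 4C, over 260 genes, 19 of 19 genes changed 4-fold were recovered, and 11 of 19 changed 2-fold. The simulated spread between libraries was a fixed setting, not an estimate from these data, and the changed genes were drawn from all genes kept. The other comparisons were not simulated, so these shares do not give the recovery of a gene with counts as low as those of Mcl1.

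Named genes were the 9 members, up to 4 called genes of each pathway list by smallest adjusted p, up to 2 of highest mean level where none was called, and the 5 genes most like Mcl1. Genes named beyond that rule were chosen after their values were seen. The members, lists and tests were chosen with earlier results of these data known. Pairing by aliquot letter was checked and is described with the alternatives.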

Additional observations from a re-analysis of the deposited data

Results flagged for a closer look

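Barcodes that the submitters named as no cell, which none of the comparisons of named cells use, also held the members, above the 3 counts that a count of 0 allows, for 8 of the 9. Over the 8 libraries they held 722 UMIs of Mcl1, 179 of Bcl2, 151 of Bcl2l1 and 34 of Bcl2a1b, and 216 of Bax, 133 of Bak1, 157 of Bcl2l11 and 27 of Pmaip1. Each of these 8 genes had most of its UMIs outside the named cells, which held 277 UMIs of Mcl1 and 10 of Pmaip1. The same was so of the UMIs of all genes in every library. The share in named cells was smallest in 37C inhibitor aliquot A, with 199929 of 801508 UMIs. It was largest in 4C inhibitor aliquot B, with 44339 of 92782 UMIs. At 37C, 16 to 41 barcodes per library that were not named held over 5000 UMIs, against 0 or 1 per library at 4C.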

How the results depend on the processing

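Over 59 results there were 811 alternative values, of which 755 kept their direction and their side of the threshold. The called fall of Mcl1 in T cells at 37C against 4C kept its direction in all of them; it lost its call with no filter (-2.07) and with DESeq2's Wald test (-2.53), and ran from -2.94 to -2.18 when 1 library was left out, with the call lost without 37C inhibitor aliquot A or 4C inhibitor aliquot B. The number of members called in T cells was then 0, as it was when libraries were thinned to the smallest total, where Mcl1 was not tested. With inhibitor in both tubes, Mcl1 in T cells was called with library totals without scaling factors (-3.90), with the replicate block (-3.69) and when any 1 of the 4 libraries without inhibitor was left out, in a range of -4.21 to -3.37, which took the count of members from 0 to 1. It was not called when either 37C inhibitor aliquot was left out.
Over all named cells the count of members called was 1 for temperature with no filter (Bcl2a1b) and with all listed barcodes (Bcl2), 1 for temperature with inhibitor with all listed barcodes (Bcl2), and 1 for inhibitor at 37C with all listed barcodes or without either of the 4C no inhibitor aliquots (Bcl2l11), with a range of 0 to 1.
Values that turned sign had not been called. For Mcl1 without inhibitor, temperature gave 0.15 with no filter and -0.20 to 0.15 with 1 library left out over all named cells, and 0.040 and -1.10 to 1.29 in tumour cells. Leaving 1 library out also gave -0.20 to 0.63 for inhibitor at 4C in T cells and -0.049 to 0.30 over all named cells, and in tumour cells -0.90 to 0.32 for temperature, -0.75 to 0.26 for inhibitor at 37C, -0.67 to 1.68 for inhibitor at 4C and -1.94 to 0.41 for the interaction. For other members, Bax for temperature turned to 0.090 with no filter and ran from -0.42 to 0.40 with 1 library left out (0.20 without 4C inhibitor B), and Bak1 ran from -0.031 to 0.73. Bcl2l11 turned to -0.27 for temperature, 0.56 for inhibitor at 4C and -1.18 for temperature with inhibitor with all listed barcodes. The last was -0.021 with library totals and -0.58 to 0.78 with 1 library left out, below 0 without 37C inhibitor A or 4C inhibitor A. With all listed barcodes Bax and Bcl2l1 turned to -0.035 and 0.065 for inhibitor at 37C. The cause was not tested.
The letters A and B were not taken to pair samples: differences between the aliquots correlated from -0.030 to 0.27 over 6 pairs of conditions, with 3 pairs over 0.1. The replicate block moved the genes called from 135 to 156 over all named cells for temperature, and from 1 to 11 in T cells for temperature with inhibitor. The replicate block gave -2.39 for Mcl1 in T cells at 37C against 4C (edgeR's adjusted p = 0.00503). The summed Bcl2a1 copies did not pass the filter, so that alternative gave no value for them. Removing T cells with markers of other classes and the fit with library totals were chosen after seeing the data. Depth limits Mcl1 in T cells, where the 37C libraries held 1 to 16 UMIs each and the 4C libraries 5 to 15.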
